A study of Mus musculus with 54 samples.

Results

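The levels of 8 imprinted genes were followed in mouse embryonic stem (ES) cells and their derivatives. They are Dlk1, Meg3, Rian and Mirg, which lie in 1 domain of chromosome 12 that ends at Dio3, H19 and Peg3 on chromosome 7, and Mest and Peg10 on chromosome 6. The members are the 8 rows with these gene names, of 38363 entries in the table of retinoic acid (RA) treated cells and 39067 in the table of LIF withdrawal. All 8 were found in both tables. The study asked how Haunt, a long noncoding RNA next to the HOXA cluster, and the DNA it is made from act on differentiation. The tables cover 20 of its 54 samples, and the other samples were not analysed here.

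In the RA set, 46C ES cells with a 58 kb deletion at the Haunt locus (58 kb KO) were set against wild-type (WT) 46C cells, a line of strain 129/Ola with a GFP reporter in Sox1. Both genotypes were held in serum-free N2B27 medium with LIF and a pair of kinase inhibitors, PD03259010 and CHIR99021, and then differentiated without these in 2 µM RA. There are 2 libraries per genotype at day 4 (KO-i and KO-j, WT-1 and WT-2) and 2 at day 2 under the same names. The labels do not say whether the names stand for clones or separate cultures, so p-values reflect the spread among these libraries alone, and that spread may be technical. The other table holds neural stem cells (NSC), neural progenitor cells (NPC) and mesendoderm (ME) as 1 library each, and WT ES cells at days 0, 2, 4 and 6 of LIF withdrawal. NPC came from 46C cells sorted for the Sox1 reporter, NSC were such sorted cells grown on with EGF and FGF-2, and ME came from a T-GFP line sorted for GFP. Day 0 (lines CJ7 and JF4), day 2 (J1 and CJ7) and day 6 (JF4, J1 and CJ7) are the authors' means of 3, 2 and 3 libraries, and day 4 is 1 library of CJ7, so day and line cannot be told apart there. CJ7 and JF4 carry the strain label 129S1/SVImJ and J1 the label 129S4/SvJae.

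An imprinted gene is read mainly from the copy inherited from 1 parent, because a control region was methylated in the egg or the sperm. Dlk1, which encodes a transmembrane protein of the Notch ligand type, and Peg3, Mest and Peg10 are read from the paternal copy. Meg3, Rian and Mirg are noncoding RNAs of 1 maternal domain that also carries many microRNA and small nucleolar RNA genes, and H19 is a maternal noncoding RNA. In cultured mouse ES cells the maternal RNAs of the Dlk1-Dio3 domain are known to be lost in some lines. Levels here are FPKM, fragments per kilobase scaled to library size, which total both parental copies.

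In the tables' build, mm9, Dlk1 (NM_001190703) spans chr12:110691665-110701546, Rian (NR_028261) chr12:110842155-110899921 and Peg3 (NM_008817) chr7:6658671-6683130. H19 (NR_001592) spans chr7:149761437-149764051 and Mest (NM_001252292) chr6:30688053-30698466. In the RA table Meg3 (NR_003633) spans chr12:110783608-110806810, Mirg (ENSMUSG00000097391) chr12:110967975-110969051 and Peg10 (NM_130877) chr6:4697306-4710516. These are whole entries, exons and introns together.

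The start regions of Dlk1 and Peg3, the members that rose in both genotypes, and the starts of Meg3 and Mest with the most CpG, are given here 5′ to 3′ on the gene's strand, from RefSeq on build GRCm38.p6. Each runs from 250 bases before to 50 bases after the start. Capitals mark TGCCGC or its reverse complement GCGGCA, which can share bases and are the letters that ZFP57, the zinc finger protein that keeps imprints methylated, binds when the CpG in them is methylated.
Dlk1, chr12:109452573-109452872, plus strand: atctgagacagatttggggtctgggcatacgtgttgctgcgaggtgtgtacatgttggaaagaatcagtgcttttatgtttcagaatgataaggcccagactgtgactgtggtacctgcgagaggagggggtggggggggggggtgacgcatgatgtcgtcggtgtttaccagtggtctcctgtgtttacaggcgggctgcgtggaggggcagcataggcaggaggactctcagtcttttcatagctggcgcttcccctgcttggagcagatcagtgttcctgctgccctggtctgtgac
Meg3, first start, chr12:109540746-109541045, plus strand: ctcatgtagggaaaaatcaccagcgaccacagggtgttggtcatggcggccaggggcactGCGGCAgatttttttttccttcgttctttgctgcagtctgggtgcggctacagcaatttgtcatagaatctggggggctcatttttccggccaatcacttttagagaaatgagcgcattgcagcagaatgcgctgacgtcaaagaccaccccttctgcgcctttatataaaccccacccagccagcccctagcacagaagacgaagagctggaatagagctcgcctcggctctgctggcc
Peg3, chr7:6730370-6730669, minus strand: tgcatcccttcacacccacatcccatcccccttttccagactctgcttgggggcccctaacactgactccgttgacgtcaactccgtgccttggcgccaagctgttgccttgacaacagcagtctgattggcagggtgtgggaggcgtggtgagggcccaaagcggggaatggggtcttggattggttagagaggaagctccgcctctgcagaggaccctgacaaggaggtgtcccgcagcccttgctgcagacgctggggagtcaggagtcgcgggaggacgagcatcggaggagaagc
Mest, second start, chr6:30737800-30738099, plus strand: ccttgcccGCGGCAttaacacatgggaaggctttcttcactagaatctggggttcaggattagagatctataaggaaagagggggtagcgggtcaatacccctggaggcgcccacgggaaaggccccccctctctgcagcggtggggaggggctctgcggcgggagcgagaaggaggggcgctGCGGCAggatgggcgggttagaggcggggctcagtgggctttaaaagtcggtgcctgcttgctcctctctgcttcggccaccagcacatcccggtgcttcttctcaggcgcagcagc
The letters occur in 3 of 9 start regions of the 6 members matched by symbol: once at the first Meg3 start and at 2 places at each of a pair of Mest starts that lie a few bases apart, 1 of them shown. Of all 32851 start regions of this length, 11.6% hold them. The Meg3 region has 13 CpG, the Mest region 17, the Peg3 region 13 and the Dlk1 region 9, where the median of all start regions is 7. The starts of Meg3 and Mest not shown and lying elsewhere have 1 CpG (Meg3) and 8 CpG (Mest). The start of Rian held 0 CpG and that of Mirg 10.

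Several of the RNAs are also hosts of microRNAs. The RefSeq table places 10 hairpins within Mirg, 3 within Rian and 1 each within Meg3, H19 and Mest. Of their 32 mature forms 31 seeds are distinct, and the 1 shared seed belongs to the pair miR-453 and miR-496a-5p in Mirg. That pair and 1 further form per host are shown with the seed, bases 2 to 8, in capitals. The libraries measured the hosts, except that the RA entry named Mirg lies outside the Mirg entry that holds the microRNA genes.
miR-453 (Mirg): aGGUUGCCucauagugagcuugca
miR-496a-5p (Mirg): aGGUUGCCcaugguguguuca
miR-410-3p (Mirg): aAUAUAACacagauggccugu
miR-370-3p (Rian): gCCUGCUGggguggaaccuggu
miR-770-5p (Meg3): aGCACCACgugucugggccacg
miR-675-5p (H19): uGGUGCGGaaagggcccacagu
miR-335-5p (Mest): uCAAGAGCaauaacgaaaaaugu
All 10 small RNA entries inside the Mirg entry of the LIF table were listed at 0 in every column, as were Mir370 in Rian, Mir770 in Meg3, Mir675 in H19 and Mir335 in Mest. The libraries were made from purified mRNA, so these entries say nothing of the mature forms.

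The deletion showed in its target. Gm15055, the name under which the tables list Haunt, had 3.08 and 0.447 FPKM in KO cells at day 4, against 31.8 and 40.6 FPKM in WT cells. At day 2 it had 1.13 and 0 FPKM in KO cells, against 128 and 142 FPKM in WT cells. Depth estimated from the steps between low values was about 9.05 to 16.4 M reads in the RA libraries, and 27.8 (NPC) to 40.6 M reads (ME) in the LIF set where a column is 1 library. Defining markers fitted the labels: ME had 192 FPKM of T and 115 FPKM of Mixl1, NPC had 21.8 FPKM of Sox1 and 55.9 FPKM of Pax6, and NSC had 1227 FPKM of Fabp7 and 211 FPKM of Olig2. Pou5f1 stood at 997 FPKM at day 0 and at 11.4 to 25.3 FPKM in the 4 RA libraries of day 4.

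Between days 2 and 4 of RA, Dlk1 and Peg3 rose several-fold in both genotypes, and Meg3, Rian and Mest rose in WT cells. In KO cells Dlk1 had 23.2 and 20.4 FPKM at day 4, against 4.27 and 3.30 FPKM at day 2. In WT cells it had 30.3 and 40.1 FPKM at day 4, against 4.52 and 5.32 FPKM at day 2. Every day 4 library was thus above every day 2 library. The log2 fold change of FPKM + 1 was 2.26 ± 0.18 (SE) in KO cells (limma adjusted p = 0.00161) and 2.60 ± 0.18 in WT cells (limma adjusted p = 0.000381). limma's moderated test was fitted to all 15705 genes that reached 1 FPKM in 2 or more of the 8 libraries, and each adjusted p is over all of them by the method of Benjamini and Hochberg.

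Peg3, which encodes a large zinc finger protein, moved most of the members. It had 148 and 204 FPKM at day 4 in KO cells, against 30.3 and 20.1 FPKM at day 2. The WT cells had 237 and 278 FPKM at day 4, against 24.8 and 21.5 FPKM at day 2. The days did not overlap, with log2 fold changes of 2.76 ± 0.22 in KO cells (limma adjusted p = 0.00161) and 3.42 ± 0.22 in WT cells (limma adjusted p = 0.000312). The RA libraries carry no strand mark, and the antisense entry Peg3as within Peg3 moved with it, by 2.95 in KO cells and 3.36 in WT cells on the same scale. The ratio of Peg3 to Peg3as was 1.17 to 1.59 in the RA libraries and 19.3 to 105 in the stranded LIF set. The cause of this gap was not tested. Peg3as shares all its 865 bases with Peg3, so reads on those bases cannot be told apart in the RA set.

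**Figure D1:**
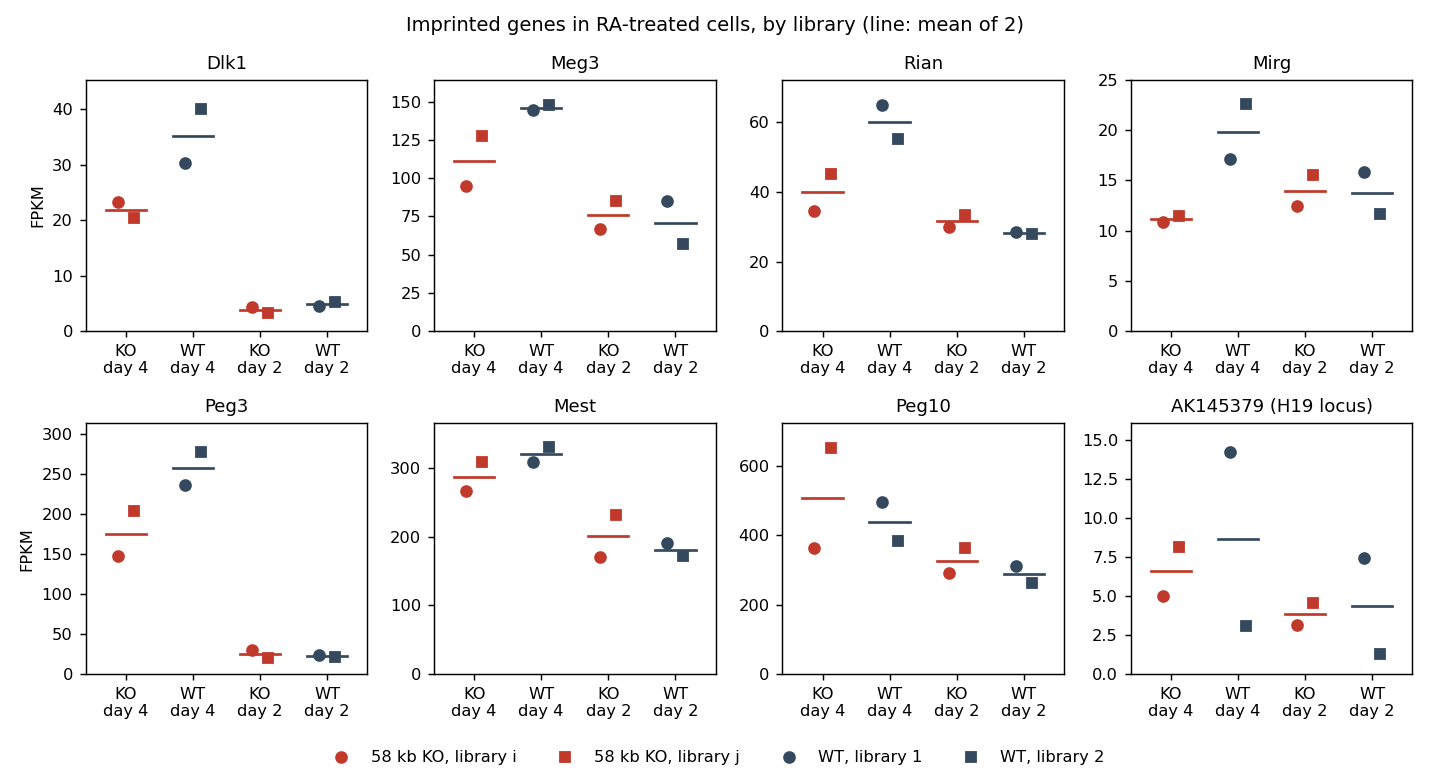
Levels in FPKM (y axis, from 0) of 7 members and of AK145379, an entry at the H19 locus, in each RA library. Red marks 58 kb KO and dark blue WT, circles are libraries i and 1, squares are j and 2, and lines are means of 2. Dlk1 at 20.4 to 40.1 FPKM and Peg3 at 148 to 278 FPKM at day 4 stand clear of all day 2 libraries.

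The 3 maternal RNAs of chromosome 12 moved less. Meg3, a long noncoding RNA, had 94.7 and 128 FPKM at day 4 in KO cells, against 67.1 and 84.9 FPKM at day 2. In WT cells it had 145 and 148 FPKM at day 4, against 85.1 and 56.8 FPKM at day 2. The days did not overlap in either genotype, but only the WT change of 1.06 ± 0.22 passed (limma adjusted p = 0.0126), and that of 0.54 ± 0.22 in KO cells did not (limma adjusted p = 0.130). The WT call was lost without WT-2 at day 2 (limma adjusted p = 0.0693), without WT-1 at day 4 (0.0618) and without WT-2 at day 4 (0.0712), over a range of 0.00587 to 0.0712 for all alternatives.

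Rian, the next RNA along the domain and a host of small nucleolar RNAs, had 34.5 and 45.1 FPKM at day 4 in KO cells, against 30.0 and 33.3 FPKM at day 2. In WT cells there were 65.0 and 55.3 FPKM at day 4, against 28.6 and 28.0 FPKM at day 2. Its WT change was 1.06 ± 0.15 (limma adjusted p = 0.00305), whereas that in KO cells was 0.31 ± 0.15 (limma adjusted p = 0.179). The RA entry named Mirg holds none of the microRNA genes shown above. It had 10.8 and 11.5 FPKM at day 4 in KO cells, against 12.4 and 15.5 FPKM at day 2. WT cells gave 17.1 and 22.6 FPKM at day 4, against 15.8 and 11.7 FPKM at day 2. Mirg passed in neither genotype, at -0.29 ± 0.19 in KO cells (limma adjusted p = 0.328) and 0.50 ± 0.19 in WT cells (limma adjusted p = 0.0979).

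Mest and Peg10 were among the most abundant RNAs in all RA libraries. Mest, which encodes an enzyme of the alpha/beta hydrolase fold, had 266 and 308.0 FPKM at day 4 in KO cells, against 170.1 and 232 FPKM at day 2. In WT cells it had 308.4 and 329.8 FPKM at day 4, against 190.3 and 172 FPKM at day 2. Mest rose in WT cells by 0.82 ± 0.16 (limma adjusted p = 0.00950), and its change of 0.52 ± 0.16 in KO cells lay just outside the threshold (limma adjusted p = 0.0553). Without WT-2 at day 2 the WT value lost its call (limma adjusted p = 0.0665), as it did without WT-2 at day 4 (0.0645), within a range of 0.00432 to 0.0665. In KO cells 5 of 18 alternatives brought Mest past the threshold, over a range of 0.0207 to 0.204.

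Peg10, a gene derived from a retrotransposon and needed for the placenta in mice, had 364 and 650.4 FPKM at day 4 in KO cells, against 290.4 and 363 FPKM at day 2. WT cells had 495 and 384 FPKM at day 4, against 312 and 263 FPKM at day 2. KO-j at day 4 stood far above KO-i, and the changes of 0.58 ± 0.27 in KO cells (limma adjusted p = 0.171) and 0.61 ± 0.27 in WT cells (limma adjusted p = 0.140) did not pass. Peg10 passed in 2 of 18 alternatives in KO cells (limma adjusted p 0.0305 to 0.605) and in 6 of 18 in WT cells (0.0218 to 0.451). In these libraries 98.3% to 99.3% of all entries with at least 1 FPKM lay below Peg10.

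In all, 2 of the 7 members tested rose in KO cells, where 10.0% of all genes did, and 5 of 7 in WT cells, where 14.4% did; none fell in either. The median change of the 7 was 0.54 in KO cells and 1.06 in WT cells, beside 0.04 in each for all genes. A call missed in KO cells and made in WT cells is not a difference between them, which is tested below. Markers of other cell types moved at the same time. The summed level of 16 extraembryonic endoderm markers was 1267 and 1231 FPKM at day 4, against 329 and 245 FPKM at day 2 in KO cells. In WT cells it was 2289 and 2193 FPKM at day 4, against 271 and 311 FPKM at day 2. None of the 16 was at 0 at day 4, and 10 of 16 rose in KO cells and 14 of 16 in WT cells. The sum of 15 pluripotency markers was 179 and 266 FPKM at day 4 against 490.5 and 897 FPKM at day 2 in KO cells, and 227 and 237 FPKM at day 4 against 910.3 and 1156 FPKM at day 2 in WT cells. Their part in the members' changes was not tested, and in bulk RNA fewer cells of a type cannot be told apart from less RNA per cell.

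The deletion itself was followed by no call in the members. At day 4 the 58 kb KO libraries lay below both WT libraries for 6 of the 7 tested members, all but Peg10, where 21.7% of all genes had KO libraries below both WT libraries. No member passed the test, and neither did any gene (0%). At an unadjusted p under 0.05 stood 4 of 7 members and 2263 of 15705 genes.

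The largest of these differences was in the RA entry named Mirg, which holds none of the microRNA genes. It stood at 54.6% (KO-i) and 57.9% (KO-j) of the WT mean (log2 fold change -0.76 ± 0.19, limma adjusted p = 0.194). Dlk1 stood at 66.0% and 57.8% of the WT mean (-0.66 ± 0.18, limma adjusted p = 0.206). Rian stood at 57.5% and 75.1% (-0.59 ± 0.15, limma adjusted p = 0.192), Peg3 at 57.5% and 79.2% (-0.56 ± 0.22, limma adjusted p = 0.316) and Meg3 at 64.7% and 87.4% (-0.41 ± 0.22, limma adjusted p = 0.427). Mest was close to WT, KO-j (308.0 FPKM) lying just below WT-1 (308.4 FPKM), and stood at 83.2% and 96.5% (-0.16 ± 0.16, limma adjusted p = 0.664). Peg10 went both ways, with 82.8% in KO-i and 148% in KO-j (0.16 ± 0.27, limma adjusted p = 0.820).

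Beside these values, the extraembryonic endoderm markers were also lower in KO cells at day 4, with 1267 and 1231 FPKM against 2289 and 2193 FPKM in WT cells. In 13 of those 16 markers both KO libraries lay below both WT libraries, as in 21.7% of all genes, and none passed. The trophoblast markers summed to 86.3 and 138 FPKM in KO cells, against 215 and 343 FPKM in WT cells. Of 6 trophoblast markers tested, 4 had both KO libraries below both WT libraries, beside the same 21.7% of all genes. Another 1 had both above, for which the share of all genes was not computed. None of the 6 passed. Marker sums do not show that such cells were present. Whether cells with these markers have a part in the members' lower values was not tested.

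At day 2 the genotypes were closer. Only Rian had both KO libraries above both WT libraries, as 23.1% of all genes did, and only Dlk1 had both below, as 13.9% did. The log2 fold changes lay between -0.31 (Dlk1) and 0.18 (Peg10), each with a limma adjusted p of 0.880 or more. No member was among the 0.0255% of genes called (4 of 15705), and none of the 7 had an unadjusted p under 0.05.

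The change of the deletion's effect from day 2 to day 4 was below 0 in all 7 tested members, with a median of -0.53 beside -0.01 for all genes. It was -0.79 ± 0.27 in Mirg (limma adjusted p = 0.824) and -0.745 ± 0.21 in Rian (limma adjusted p = 0.710). Neither these nor the other members passed, nor did any gene (0%), and 2 of 7 members and 873 of 15705 genes had an unadjusted p under 0.05. This contrast uses the same 8 libraries as the ones above and is no separate evidence.

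**Figure D2:**
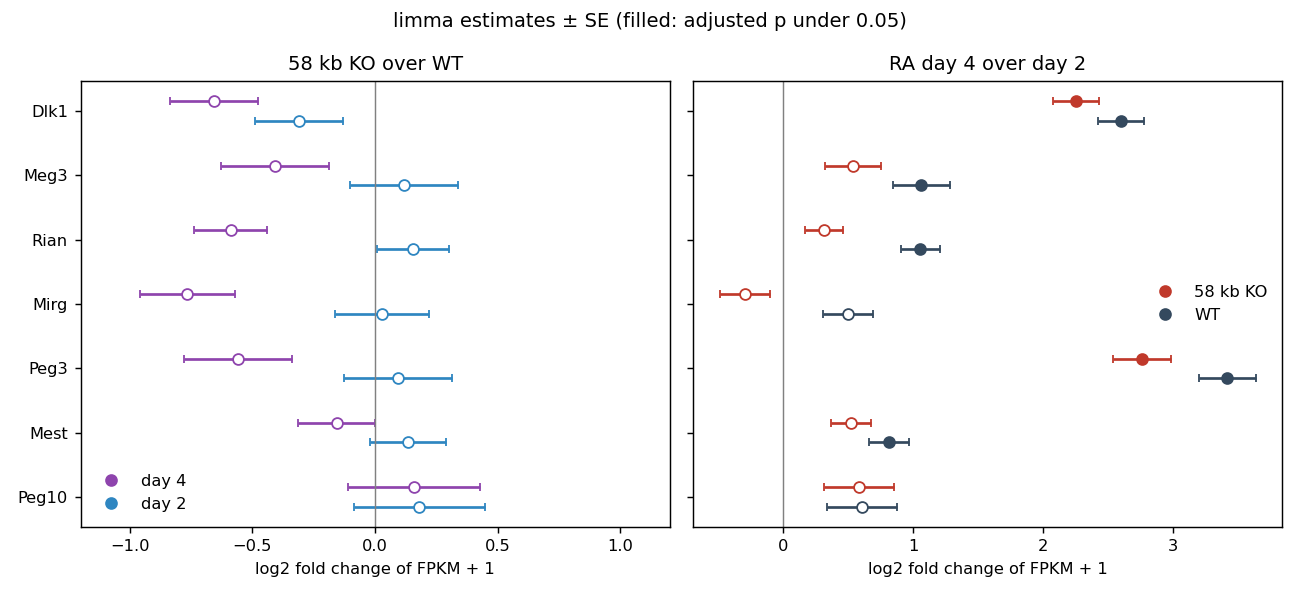
Log2 fold changes of FPKM + 1 with SE for 7 members, 58 kb KO over WT at days 4 and 2 (left) and RA day 4 over day 2 in each genotype (right). Filled points passed limma's adjusted p of 0.05. On the left no point is filled and 6 of 7 day 4 points lie below 0, and on the right Dlk1 and Peg3 lie above 2 in both genotypes.

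Genes of chromosome 6, which holds Mest and Peg10, were slightly higher in KO cells, more so in KO-j. The median log2 difference from the WT mean over its 405 genes with a mean of at least 5 FPKM at day 4 was 0.06 for KO-i and 0.15 for KO-j, and at day 2 it was 0.09 for KO-i and 0.20 for KO-j. Chromosomes 7 and 12 lay between -0.04 and 0.07, a range that holds the 0.06 of KO-i at day 4, and all genes lay between 0.01 and 0.04. Centring each chromosome put the KO difference of Peg10 at 0.06 at day 4 and 0.04 at day 2, and that of Mest at -0.26 at day 4 and -0.01 at day 2, and none of these passed. It brought the day 4 over day 2 change of Mest in KO cells past the threshold, at 0.57 (limma adjusted p = 0.0240). Genes within 2 Mb of a member, with a mean of at least 5 FPKM, held no call for the deletion at day 4, among 20 near Dlk1, 19 near Peg3, 21 near Mest, 9 near Peg10 and 46 near H19. Their median differences were 0.02, 0.13, 0.12, 0.22 and 0.08 in that order of members. For the day in WT cells 2 of the 20 near Dlk1, 7 of the 19 near Peg3, 6 of the 21 near Mest, 3 of the 9 near Peg10 and 15 of the 46 near H19 passed in either direction, where 25.3% of all genes did.

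Within the Dlk1-Dio3 domain the level of Meg3 relative to Dlk1 moved with the day, in totals of both parental copies. The ratio of Meg3 to Dlk1 FPKM was 4.08 and 6.27 in KO cells at day 4, against 15.7 and 25.7 at day 2. In WT cells it was 4.78 and 3.68 at day 4, against 18.8 and 10.7 at day 2. Genotypes overlapped in it at each day, and the days did not overlap. Meg3 to Rian lay at 2.03 to 2.98 over all 8 libraries. Rian to the RA entry named Mirg was 3.19 and 3.93 in KO cells at day 4, against 2.42 and 2.14 at day 2. In WT cells this ratio was 3.80 and 2.45 at day 4, against 1.80 and 2.40 at day 2, so that the days did not overlap, narrowly in WT-2. Of the other genes of the domain, Dio3, a thyroid hormone deiodinase at its far end, had 2.80 and 2.46 FPKM in KO cells at day 2, against 5.07 and 8.31 FPKM in WT cells, and did not pass (limma adjusted p = 0.880). At day 4 Dio3 overlapped between genotypes, with 2.87 and 3.597 FPKM in KO cells against 3.52 and 6.97 FPKM in WT cells. Rtl1, a paternally read gene derived from a retrotransposon, was at 0.147 to 0.348 FPKM throughout.

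H19 could not be read from its own row. The H19 entry was under 1e-05 FPKM in 7 of the 8 RA libraries and 0.185 FPKM in WT-1 at day 2, and did not pass the filter. A further entry, AK145379, covers 98.8% of the H19 span (2583 of 2615 bases, chromosome 7, mm9) and holds the signal there. AK145379 had 5.05 and 8.15 FPKM in KO cells at day 4, against 14.3 and 3.11 FPKM in WT cells. At day 2 it had 3.19 and 4.59 FPKM in KO cells, against 7.48 and 1.31 FPKM in WT cells. WT-1 and WT-2 lay on either side of both KO libraries at each day, and no contrast passed (limma adjusted p 0.433 to 0.998) except, for the day, with the library name as a block.

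**Figure D3:**
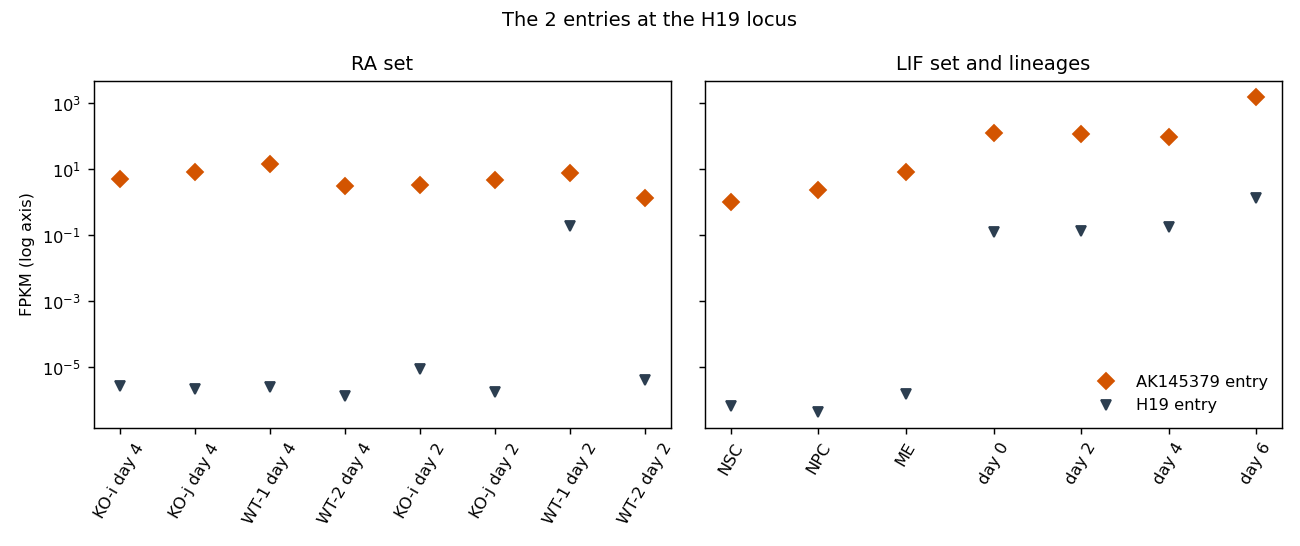
FPKM (log axis) of the H19 entry (triangles) and of AK145379, which spans the same bases (diamonds), in each RA library and in each column of the LIF set. AK145379 lies above the H19 entry in all 15 columns, from 0.994 FPKM in NSC to 1531 FPKM at day 6.

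In the LIF set each column is 1 value with no spread, so levels are described without a test, and a fold of 2 on the scale of FPKM + 1 serves as the size rule. The spans of Meg3, Mirg and Peg10 differ between the tables, those of Mirg sharing no base, and no level is compared across them. Along LIF withdrawal, Peg3 stood at 48.8, 40.7, 252 and 245 FPKM at days 0, 2, 4 and 6. Peg10 stood at 33.4, 50.3, 83.0 and 145 FPKM and Mest at 16.1, 26.2, 19.8 and 99.7 FPKM at these days. Dlk1 was low throughout, at 0.325, 0.660, 0.980 and 3.37 FPKM. On the scale of FPKM + 1, these 4 paternally read genes were each at least 3.30-fold above day 0 at day 6.

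The maternal RNAs of chromosome 12 had another course, highest at day 2. Meg3 had 15.3, 37.4, 27.2 and 21.4 FPKM at days 0, 2, 4 and 6. Rian had 16.3, 33.4, 18.4 and 21.4 FPKM and Mirg 2.29, 7.02, 2.66 and 1.85 FPKM. None of the 3 was past a fold of 2 at day 6. At the H19 locus AK145379 had 120, 114, 95.5 and 1531 FPKM, and the H19 entry 0.128, 0.136, 0.175 and 1.34 FPKM. Igf2, the growth factor gene next to H19, stood at 358 FPKM at day 6 and 13.4 FPKM at day 0.

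By the size rule 2 of 8 members differed from day 0 at day 2 (Meg3 and Mirg), where 9.65% of 14189 entries did. At day 4 there were 2 of 8 (Peg3 and Peg10), beside 15.2% of entries, and at day 6 there were 5 of 8 (Dlk1, H19, Peg3, Mest and Peg10), beside 18.3%. The median difference of the 8 members at day 6 was 1.39, beside 0.07 for all entries. Marker lists moved too. The trophoblast sum was 3217 FPKM at day 6 and 292 FPKM at day 0, and the mesoderm sum 426 and 73.6 FPKM. In the same order, mesendoderm had 155 and 6.26 FPKM, and extraembryonic endoderm 460.0 and 98.6 FPKM. The neural stem cell sum was 1507 and 419 FPKM, and the fibroblast and feeder sum 83.7 and 22.1 FPKM. Pluripotency markers fell, with 361 FPKM at day 6 and 2033 FPKM at day 0. Neural progenitor markers had 170 FPKM at day 6 and 189 FPKM at day 0. The part of these lists in the day 6 levels was not tested.

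In NSC the maternal RNAs of chromosome 12 were near 0. NSC had 0.147 FPKM of Meg3, 0.122 FPKM of Rian and 0.0274 FPKM of Mirg. NPC, sorted from the same 46C line, had 40.7 FPKM of Meg3, 52.9 FPKM of Rian and 3.09 FPKM of Mirg. ME had 46.3 FPKM of Meg3, 41.7 FPKM of Rian and 7.14 FPKM of Mirg, so NSC stood far below both other lineages in all 3. The NSC library was deeper than the NPC one, at about 34.4 against 27.8 M reads. Dlk1, the paternal gene of that domain, was at 0.770 FPKM in NSC, 1.54 FPKM in NPC and 0.902 FPKM in ME, and the ratio of Meg3 to Dlk1 was 0.191 in NSC, 26.4 in NPC and 51.3 in ME.

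Mest was highest in the neural columns, with 159 FPKM in NSC and 376 FPKM in NPC, against 17.3 FPKM in ME and 16.1 FPKM at day 0. Peg3 was highest in ME, with 25.5 FPKM in NSC, 53.7 FPKM in NPC and 280.0 FPKM in ME. So was Peg10, with 18.5 FPKM in NSC, 43.4 FPKM in NPC and 154 FPKM in ME. AK145379 at the H19 locus was at 0.994 FPKM in NSC, 2.24 FPKM in NPC and 8.13 FPKM in ME, against 120 FPKM at day 0, and the H19 entry was near 0 in all 3.

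**Figure D4:**
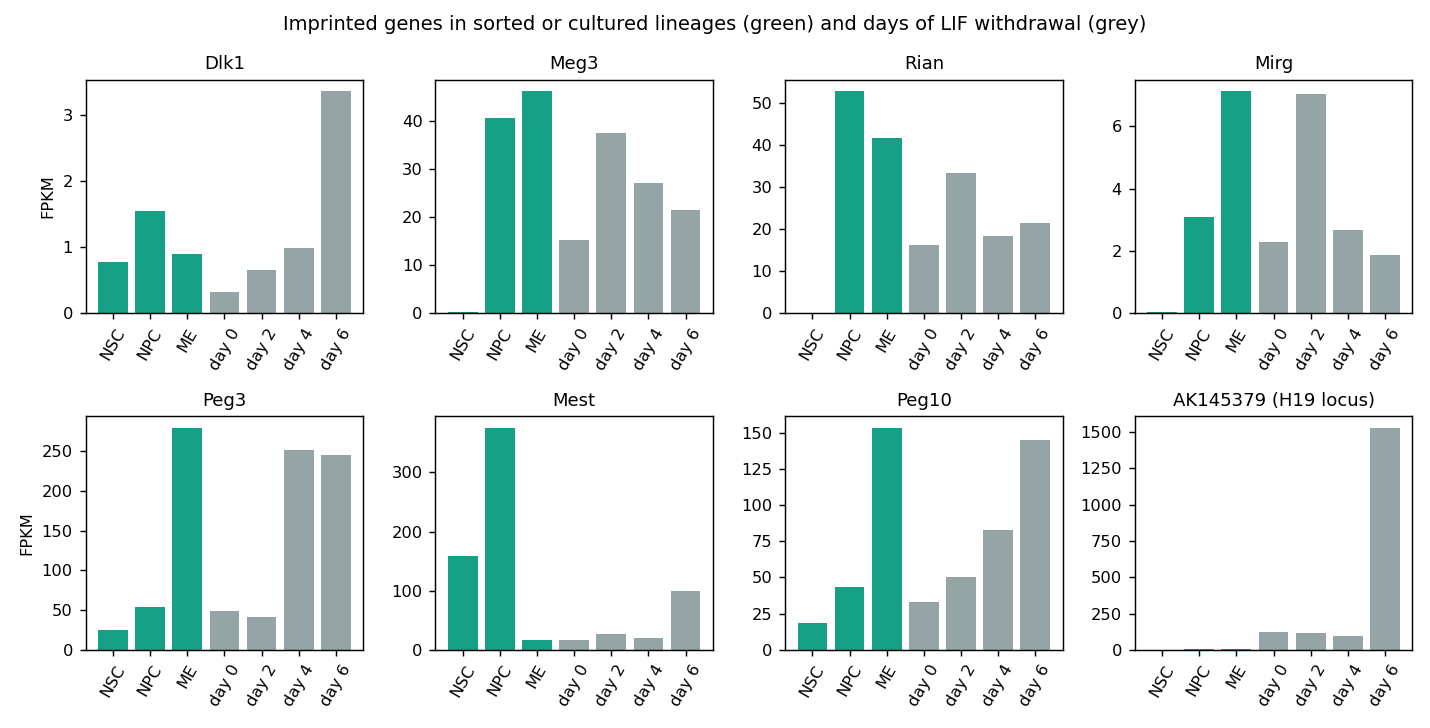
FPKM (y axis, from 0) of 7 members and AK145379 in the lineages NSC, NPC and ME (green) and at days 0, 2, 4 and 6 of LIF withdrawal (grey). Bars are 1 library each, or the authors' means at days 0, 2 and 6. Meg3, Rian and Mirg are at or under 0.147 FPKM in NSC, and Mest is highest in NPC at 376 FPKM.

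Against day 0, NSC differed by the size rule in 4 of 8 members (Meg3, Rian and Mirg lower, Mest higher), where 37.0% of entries did. NPC differed in 3 of 8 (Meg3, Rian and Mest higher), beside 26.3% of entries, and ME in 5 of 8 (Meg3, Rian, Mirg, Peg3 and Peg10 higher), beside 19.9%. Between NSC and NPC, 6 of 8 members differed, all lower in NSC, beside 23.2% of entries in either direction. The members' median difference there was -1.21, beside -0.02 for all entries. The shares against day 0 in NSC and NPC are near the background. These counts take H19 by its own row, which is not past the rule in any lineage. AK145379, which holds that locus's signal, was past it against day 0 in all 3 and not between NSC and NPC. On the scale of FPKM + 1 its level was 0.0165-fold that of day 0 in NSC, 0.0268-fold in NPC and 0.0753-fold in ME.

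Of 39 other imprinted genes, 28 were tested in the RA set. From day 2 to day 4, 6 rose and 2 fell in KO cells, where 10.0% of all genes rose and 7.81% fell. In WT cells 7 rose and none fell, where 14.4% of all genes rose and 10.9% fell. The share that fell in KO cells was near that of all genes. The median was 0.20 in KO and 0.02 in WT cells, beside 0.04 for all genes in each. Zim1, a zinc finger gene beside Peg3, rose by 2.33 ± 0.18 in KO cells (limma adjusted p = 0.00161) and 2.50 ± 0.18 in WT cells (limma adjusted p = 0.000429). Airn, the antisense noncoding RNA at Igf2r, rose by 1.60 ± 0.17 in KO cells (limma adjusted p = 0.00303) and by 2.22 ± 0.17 in WT cells (limma adjusted p = 0.000472). Igf2 rose by 1.06 ± 0.21 in KO cells (limma adjusted p = 0.0185) and by 1.81 ± 0.21 in WT cells (limma adjusted p = 0.00172). Ndn, a gene of the Prader-Willi region, rose in KO cells by 1.01 ± 0.21 (limma adjusted p = 0.0201) and in WT cells by 0.94 ± 0.21 (limma adjusted p = 0.0172). Asb4 rose in WT cells by 2.13 ± 0.31 (limma adjusted p = 0.00360), and its value in KO cells was 0.88 ± 0.31 (limma adjusted p = 0.0888). The 2 that fell in KO cells were Snrpn, a splicing factor gene (-0.82 ± 0.22, limma adjusted p = 0.0405), and Grb10, an inhibitor of growth signalling (-0.54 ± 0.15, limma adjusted p = 0.0486). In WT cells the lowest p among negative values belonged to Grb10 (-0.45, limma adjusted p = 0.0653) and Magel2 (-0.59, limma adjusted p = 0.0907).

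None of the 28 passed for the deletion. At day 4 the lowest p-values among the negative differences were those of Airn, with 4.01 and 4.57 FPKM in KO cells against 8.96 and 8.20 FPKM in WT cells (limma adjusted p = 0.165), and Asb4, with 0.849 and 1.73 FPKM in KO cells against 3.44 and 6.61 FPKM in WT cells (limma adjusted p = 0.173). Sgce, the neighbour of Peg10, had the lowest p among the positive ones, with 17.9 and 22.2 FPKM in KO cells against 15.2 and 12.6 FPKM in WT cells (limma adjusted p = 0.310), followed by Trappc9 (0.19 ± 0.11). At day 2 these were Sgce and Ppp1r9a on the positive side and Dio3 and Slc38a4 on the negative side, each at a limma adjusted p of 0.880. For the change between days the lowest p-values were those of Asb4 (-1.25) and Airn (-0.62) on the negative side and Ube3a (0.35) and Dio3 (0.54) on the positive side.

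Of 14 tested of 15 genes that set or keep imprints, 4 fell and none rose from day 2 to day 4 in KO cells, and 6 fell and 1 rose in WT cells, with a median of -0.36 in KO and -0.55 in WT cells. Of all genes, 7.81% fell in KO cells and 10.9% in WT cells. Dnmt3l, the cofactor of new DNA methylation, fell by 2.32 ± 0.29 on the log2 scale in KO cells (limma adjusted p = 0.00443) and by 2.20 ± 0.29 in WT cells (limma adjusted p = 0.00247). Dnmt3b, a DNA methyltransferase, fell by 0.76 ± 0.17 in KO cells (limma adjusted p = 0.0241) and by 1.15 ± 0.17 in WT cells (limma adjusted p = 0.00383). Uhrf1, which brings DNMT1 to newly copied DNA, fell by 0.69 ± 0.11 in KO cells (limma adjusted p = 0.00780) and by 0.60 ± 0.11 in WT cells (limma adjusted p = 0.00709). Trim28, the partner of ZFP57, fell by 0.64 ± 0.14 in KO cells (limma adjusted p = 0.0216) and by 0.62 ± 0.14 in WT cells (limma adjusted p = 0.0162). Zfp57 itself (-1.58 ± 0.36, limma adjusted p = 0.0173) and Dnmt3a (-0.53 ± 0.13, limma adjusted p = 0.0210) also fell in WT cells, and neither passed in KO cells. Aff3 rose in WT cells by 0.92 ± 0.21 (limma adjusted p = 0.0170), and its value in KO cells was 0.43 ± 0.21 (limma adjusted p = 0.189). None of the 14 passed for the deletion. The lowest p-values at day 4 belonged to Setdb1 (0.27) and Dnmt1 (0.14) among positive log2 differences and to Aff3 (-0.44) and Ctcf (-0.22) among negative ones. At day 2 they belonged to Zfp445 (0.17), Setdb1 (0.12), Dnmt3b (-0.38) and Dnmt3a (-0.22).

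**Figure D5:**
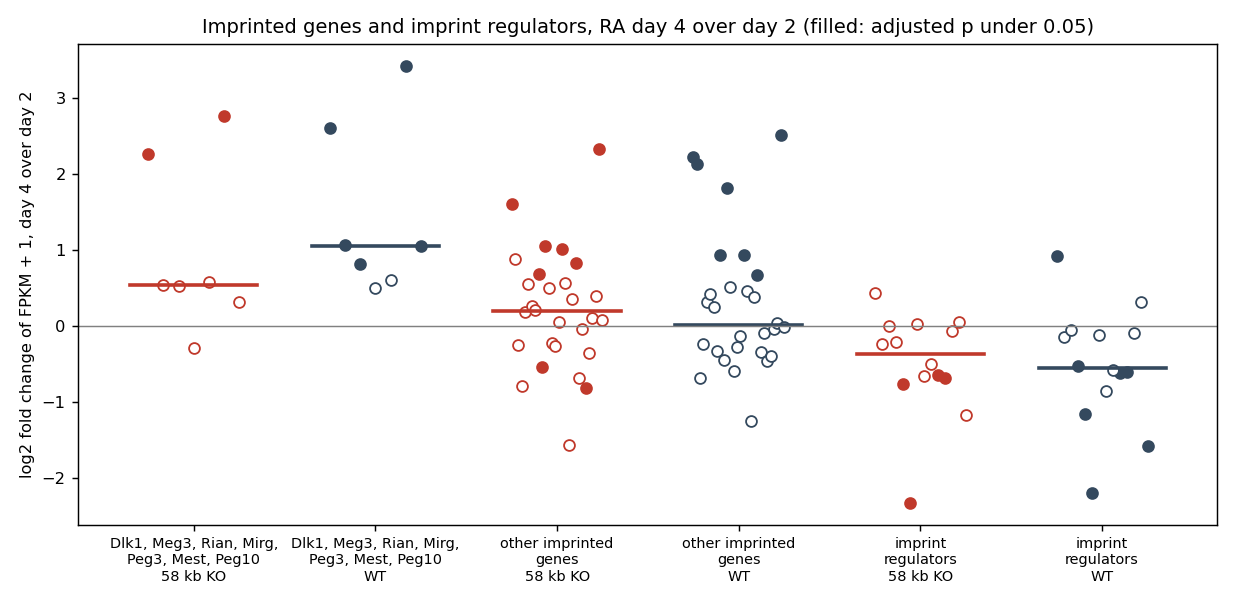
Log2 fold change of FPKM + 1 from day 2 to day 4 of RA (day 4 over day 2) for the 7 members tested, 28 other imprinted genes and 14 imprint regulators, in 58 kb KO (red) and WT (dark blue). Each point is a gene, filled points passed limma's adjusted p of 0.05, and lines are medians, which for the members stand at 0.54 in KO and 1.06 in WT cells.

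Of the regulators, Zfp57 had 1.89 FPKM in NSC, 25.1 FPKM in NPC and 25.1 FPKM in ME, against 99.8 FPKM at day 0. Dnmt3l had 0.0406 FPKM in NSC, 3.22 FPKM in NPC and 5.46 FPKM in ME, against 157 FPKM at day 0. Between NSC and NPC, 4 of 15 regulators differed by the size rule, all lower in NSC (Zfp57, Dnmt3b, Dnmt3l and Aff3), a share near the 23.2% of all entries past it in either direction. Of 30 other imprinted genes measured there, 8 were lower and 1 higher in NSC than in NPC, beside the same 23.2%. Grb10 had 0.593 FPKM in NSC and 176 FPKM in NPC, and Cdkn1c, a cell cycle inhibitor, had 4.96 FPKM in NSC and 158 FPKM in NPC. Airn was the 1 higher, with 7.94 FPKM in NSC and 1.04 FPKM in NPC. Genes named in this paragraph were chosen after their values were seen.

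Likeness was measured as Pearson's r of log2(FPKM + 1) over the 8 RA libraries, among 9170 named genes with a mean of at least 5 FPKM. The libraries fall into 4 groups and share their days, so r is a description. Peg3 was most like Meis2, Nr2f2 and Csf1 (r = 0.998 each), and Dlk1 most like Lrpap1 (0.992), Col4a2 (0.992) and Yipf2 (0.991). Meg3 was most like Efna4 (0.989), Msl1 (0.982) and Mgat4b (0.981). For Rian these were Klhl24 (0.993), Son (0.981) and Wdr45b (0.975), and for Mirg they were Caap1 (0.970), Crabp1 (0.940) and Gfra3 (0.910). Mest was most like Parp16 (0.988), 1110038F14Rik (0.984) and Hspg2 (0.983), and Peg10 most like Aagab (0.979), 2010001M06Rik (0.970) and Slc29a2 (0.969). Counts of high r were made over all 9686 entries with such a mean, unnamed loci and other members included. Among these, an r of at least 0.95 was reached by 498 entries with Peg3 and 364 with Dlk1, but by 1 with Mirg and 4 with Peg10.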

How the data were processed

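RNA-seq values of 20 samples were used. The deposited tables are read as FPKM because of the size and spacing of their values, as no column name states a unit. Bowtie 1.0.0, TopHat2 2.0.11 and mm9 stand in the submitters' processing notes without a role; no source used here says which program made the values. The RA libraries carry no strand mark and the LIF libraries do, per the labels' protocols; strand use in counting is not stated, so overlapping and antisense genes are uncertain. Exact 0 values may be failed estimates. Depths are approximate, and intervals were not drawn from them.

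Groups were taken from the labels; 1 sample outside the tables had no clear group. From the RA table, log2(FPKM + 1) of 15705 genes (at least 1 FPKM in at least 2 libraries) was fitted with limma 3.58.1 in R 4.3.3 (4 groups, intensity trend, 4 residual degrees of freedom). This scale understates changes of low genes. The fit was also run on simulated data, with noise independent between libraries and shifts larger than the members' differences for the deletion. That run cannot show how well differences as small as those of the members are found. The LIF table, normalized separately, was only described, over 14189 entries with at least 1 FPKM in a column; 11 entries with repeated symbols and 1 with a blank value were left out. The members, gene lists and tests were chosen with earlier results of these data known. Named list genes are those past the threshold, up to 4 of smallest p per direction and contrast, or otherwise the 2 of smallest p. For the day, Ndn, Zfp57 and Dnmt3a in WT cells and Asb4 in KO cells are given beyond this rule. Alternatives were the pseudocount, the filter, quantile normalization, no trend, centring per chromosome, fewer libraries and the library name as a block.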

Additional observations from a re-analysis of the deposited data

Results flagged for a closer look

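Rian was the 1 member whose 58 kb KO libraries lay below the WT libraries at day 4 and above them at day 2. Of all genes, 21.7% lay below at day 4 and 23.1% above at day 2. The share that did both was not computed. At day 4 it had 34.5 and 45.1 FPKM in KO cells, against 65.0 and 55.3 FPKM in WT cells. At day 2 it had 30.0 and 33.3 FPKM in KO cells, against 28.6 and 28.0 FPKM in WT cells. The difference between the effects was -0.745 ± 0.21 log2 units, and it did not pass over all genes (limma adjusted p = 0.710, unadjusted p = 0.00788). For this contrast 873 of 15705 genes had an unadjusted limma p under 0.05.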

How the results depend on the processing

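Of 623 member values under alternatives, 596 kept their direction and side of the threshold or moved by less than their SE, 5 lost a call, 13 gained one and 9 uncalled ones changed sign; no called value changed sign. Without a filter on low values 7, 1, 5 and 1596 genes passed for the deletion at day 2 (otherwise 4), at day 4 (0), for their difference (0) and for the day in KO cells (2802). Fitting only the 4 libraries of a contrast gave 0 genes for the deletion at day 2 and 396 for the day in KO cells. A pseudocount of 0.1 gave 1 gene for the deletion at day 4 and 5 members past a fold of 2 in NPC (otherwise 3), and no trend gave 1 gene for the difference. Leaving out 1 library gave 0 to 5 and 0 to 7 genes for the deletion at days 2 and 4, 0 to 1 for the difference, 980 to 2159 for the day in KO cells and 1494 to 4273 in WT cells (otherwise 3973). The low WT counts came without WT-1 at day 2 (1819), WT-2 at day 2 (1667), WT-1 at day 4 (1917) and WT-2 at day 4 (1494). Members called for the day then numbered 2 to 3 in KO and 3 to 6 in WT cells. Without KO-i at both days 1, 1 and 736 genes passed for the deletion at days 2 and 4 and for the day in KO cells, and without KO-j 1, 7 and 726. The causes were not tested, beyond the fewer libraries themselves.

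Libraries of the same name deviated together (r = 0.379 in KO and 0.142 in WT cells over 9686 genes), but the names are not stated to mark clones or batches. With the name as a replicate block, 4 members passed for the day in KO cells (otherwise 2: Mest and Peg10 were added) and 6 in WT cells (otherwise 5: Peg10 was added), and 0 for the difference. AK145379 at the H19 locus then passed for the day too, at 0.62 in KO cells (limma adjusted p = 0.0284, 0.0284 to 0.838 over its alternatives) and 0.84 in WT cells (limma adjusted p = 0.00937, 0.00937 to 0.946), and in none of its other alternatives. As a random block for the deletion it gave 4 genes at day 2 and 0 at day 4. The RA depths of about 9.05 to 16.4 M reads limit the precision of low values.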

Other observations

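The WT libraries differed from each other at both days in 2 entries at imprinted loci of distal chromosome 7, AK145379 and Cdkn1c. AK145379 at the H19 locus was 4.58-fold higher in WT-1 than in WT-2 at day 4 and 5.72-fold higher at day 2. Cdkn1c, a maternally read cell cycle inhibitor, had 36.7 FPKM in WT-1 and 5.33 FPKM in WT-2 at day 4, and 28.4 FPKM and 3.52 FPKM at day 2. Both KO libraries lay between them for Cdkn1c, at 25.8 and 29.0 FPKM at day 4 and 17.3 and 19.3 FPKM at day 2. These 2 entries were among 16 of 15705 that were at least 2-fold higher in WT-1 on the scale of FPKM + 1 at both days, and 25 were higher in WT-2. Igf2, between the pair on the chromosome, was 0.774-fold at day 4 and 1.58-fold at day 2. These genes were singled out after their values were seen.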
